A study of Caenorhabditis elegans with 2 samples.

Results

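The ceh genes of Caenorhabditis elegans are named for the homeobox, the DNA segment that encodes the homeodomain, and their pooled SMA-9 peaks are described here. The set holds 62 of the 19973 protein-coding genes that Ensembl release 115 annotates on the 6 nuclear chromosomes of WBcel235, namely all whose name starts with ceh-, leaving out ceh-13. A peak was assigned to a gene when its summit lay in the gene body or up to 2 kb upstream, a span called the gene window below. One summit can therefore count for more than 1 gene. Binding was mapped by chromatin immunoprecipitation and sequencing in whole, mixed-sex second-stage (L2) larvae of strain OP130, whose labelled genotype is unc-119(ed3) III with wgIs130, an insertion directed at sma-9 that the labels describe as an eGFP fusion. The only group had 2 biological replicates, and no untagged or control list was used. The labels do not give the promoter of the transgene or the cells that express it, and whole worms mix all tissues.

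Homeodomain proteins bind DNA and set the identity of cells, and most worm members of the family act in neurons, while others act in pharynx, skin or mesoderm. SMA-9, the worm relative of the fly zinc finger protein Schnurri, acts together with SMADs in BMP-like signalling to set body size, and it also patterns the postembryonic mesoderm. The homeodomain classes used below are NK and other Antennapedia-like, paired-like, LIM, POU, sine oculis-type, PBC and ONECUT.

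The deposited lists give each peak a signal, which is the authors' own value on a scale that is not stated. Each of the 3 relaxed lists (replicate 1, replicate 2 and both pooled) holds its 30000 strongest peaks, background included, so the presence of a peak says little unless its rank is given. Rank 1 is the strongest. The pooled signal ran from 10.9 to 157 with a median of 14.1. A thresholded list holds the 125 strongest pooled peaks. Read depth is unknown from these lists, the 2 libraries cannot be tested against another group, and the shares and ranks below are descriptions with no test.

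The sequences of 9 summits within the 5000 strongest pooled peaks are shown as examples from an exon, an intron and upstream, of which 7 were picked for the motifs they hold and 2, at ceh-22 and ceh-1, because they hold none of those searched. They are not the 9 of best rank, and the peaks at ceh-8, ceh-5, ceh-9 and ceh-49 are not among them. Each is the 200 bp around a pooled summit, from the RefSeq assembly of WBcel235 (ce11 coordinates), plus strand. Capitals mark every match, on either strand, to 1 of 6 motifs, the most common being the SMAD box GTCT, which reads AGAC on the other strand. The first was the strongest pooled peak shown and lies in an exon of ceh-81 and upstream of ceh-82 (II:1731186-1731385). The next are an intron of ceh-36 (X:14183684-14183883), an exon of ceh-60 (X:6528123-6528322) and an intron of ceh-28 (X:13075232-13075431). Then come an exon of ceh-92 (III:11582045-11582244), the region just upstream of ceh-10 (III:5798819-5799018) and a site further upstream of ceh-32 (V:11707023-11707222). The last are an intron of ceh-22 (V:10675034-10675233) and an exon of ceh-1 (X:4653679-4653878).
ceh-81 and ceh-82: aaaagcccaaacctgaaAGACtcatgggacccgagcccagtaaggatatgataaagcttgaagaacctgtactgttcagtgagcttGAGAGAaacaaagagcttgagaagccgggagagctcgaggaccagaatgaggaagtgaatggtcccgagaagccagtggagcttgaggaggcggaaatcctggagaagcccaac
ceh-36: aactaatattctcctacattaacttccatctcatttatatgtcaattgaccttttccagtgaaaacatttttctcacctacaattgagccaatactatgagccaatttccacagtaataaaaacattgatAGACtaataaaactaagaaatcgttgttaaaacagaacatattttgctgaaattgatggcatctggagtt
ceh-60: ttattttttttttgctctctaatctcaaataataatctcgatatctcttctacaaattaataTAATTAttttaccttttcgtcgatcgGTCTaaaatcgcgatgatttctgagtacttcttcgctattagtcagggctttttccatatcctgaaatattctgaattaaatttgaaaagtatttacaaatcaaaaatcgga
ceh-28: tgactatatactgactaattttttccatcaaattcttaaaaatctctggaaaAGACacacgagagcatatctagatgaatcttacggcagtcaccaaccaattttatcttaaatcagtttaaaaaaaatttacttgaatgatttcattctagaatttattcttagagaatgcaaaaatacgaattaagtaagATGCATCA
ceh-92: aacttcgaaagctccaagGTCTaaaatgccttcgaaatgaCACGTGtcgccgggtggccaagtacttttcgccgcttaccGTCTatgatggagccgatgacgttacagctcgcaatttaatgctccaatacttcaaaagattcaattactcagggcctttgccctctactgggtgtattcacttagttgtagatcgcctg
ceh-10: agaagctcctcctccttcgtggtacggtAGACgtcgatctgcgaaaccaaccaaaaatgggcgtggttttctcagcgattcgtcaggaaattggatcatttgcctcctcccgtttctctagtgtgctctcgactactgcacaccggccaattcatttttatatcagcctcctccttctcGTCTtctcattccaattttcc
ceh-32: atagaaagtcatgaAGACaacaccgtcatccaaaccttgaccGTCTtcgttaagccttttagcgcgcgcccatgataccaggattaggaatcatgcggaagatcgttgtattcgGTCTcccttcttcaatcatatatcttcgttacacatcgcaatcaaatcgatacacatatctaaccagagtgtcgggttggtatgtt
ceh-22: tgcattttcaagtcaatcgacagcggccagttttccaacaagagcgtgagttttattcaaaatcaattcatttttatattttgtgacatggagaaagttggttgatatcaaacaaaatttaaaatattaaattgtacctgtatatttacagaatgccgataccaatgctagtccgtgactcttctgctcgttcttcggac
ceh-1: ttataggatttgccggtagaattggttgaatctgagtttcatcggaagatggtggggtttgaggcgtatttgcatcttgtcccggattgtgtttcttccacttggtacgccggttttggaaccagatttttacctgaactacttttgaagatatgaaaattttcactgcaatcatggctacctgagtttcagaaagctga
The window at ceh-81 had 51% G and C and carried GAGAGA beside 1 SMAD box. That at ceh-60 had 28% and carried 1 SMAD box and 1 homeodomain core, TAATTA. The ceh-28 window held 1 SMAD box and, at its right edge, the reverse complement of the Hox-Pbx site TGATNNAT. The ceh-32 window had 3 SMAD boxes, and the ceh-92 window had 2 together with the E-box CACGTG.

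No ceh gene had a thresholded SMA-9 peak. The count was 0 of 62, beside 90 of 19973 protein-coding genes (0.451%). The closest a thresholded summit came was 4874 bp from ceh-5 (pooled rank 122), then 5719 bp from ceh-28 (rank 112). With a window of 5 kb upstream, ceh-5 gained the first of these.

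Below that threshold, peaks reached a larger share of the ceh genes than of all coding genes at each depth given here. Any pooled peak was present at 55 of 62 ceh genes (88.7%), beside 73.2% of all coding genes. The exact 95% Clopper-Pearson interval of 78.1% to 95.3% treats genes as independent draws, though they are the whole named set and some share a summit. It does not measure the spread between libraries and is no test against the share of all coding genes. The 10000 strongest peaks reached 35 ceh genes (56.5%, beside 36.5%), and the 5000 strongest reached 23 (37.1%, beside 20.8%). The 1000 strongest reached 5 (8.06%, beside 4.6%) and the 500 strongest reached 4 (6.45%, beside 2.12%). These last counts rest on few loci, since ceh-81 and ceh-82 share 1 summit.

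**Figure D1:**
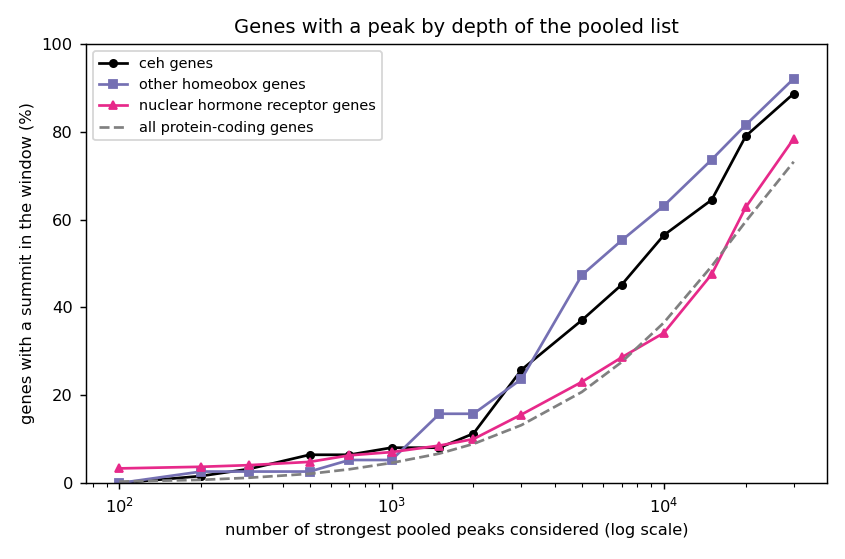
Share of genes with a summit in the window (%) against the number of strongest pooled peaks considered (log scale), for 62 ceh genes, 38 other homeobox genes, 269 nuclear hormone receptor genes and all 19973 protein-coding genes. The ceh line starts at 0, lies above the line of all coding genes from 200 peaks on, and ends at 88.7% beside 73.2%.

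Longer windows hold more peaks, and ceh genes have somewhat longer windows, with a median of 4.74 kb beside 4.03 kb for all coding genes. Per kb of window the pooled list had 0.363 summits at ceh genes and 0.299 at all coding genes. The density at ceh genes was 0.337 in replicate 1 and 0.399 in replicate 2, beside 0.297 and 0.304. Coding genes were therefore divided by window length into 4 groups of about equal size. In the group of shortest windows, 4 of 8 ceh genes had one of the 5000 strongest peaks (50%, beside 13.7% of all coding genes there). In the next group the count was 4 of 16 (25%, beside 16.2%), then 7 of 18 (38.9%, beside 21%), and in the longest 8 of 20 (40%, beside 32.1%). At that depth the ceh share was higher in each group, by amounts that rest on 8 to 20 genes. For the 1000 strongest peaks the counts in the groups of shorter windows were 2 of 8 (25%, beside 2.83%) and 2 of 16 (12.5%, beside 3.37%). In those of longer windows they were 0 of 18 (beside 4.38%) and 1 of 20 (5%, beside 7.83%). With at most 2 genes in a group, these counts are too small to order the groups. For any peak at all the ceh share was lower in 1 group, windows of 3.21 to 4.03 kb, at 11 of 16 (68.8%, beside 69.7%).

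**Figure D2:**
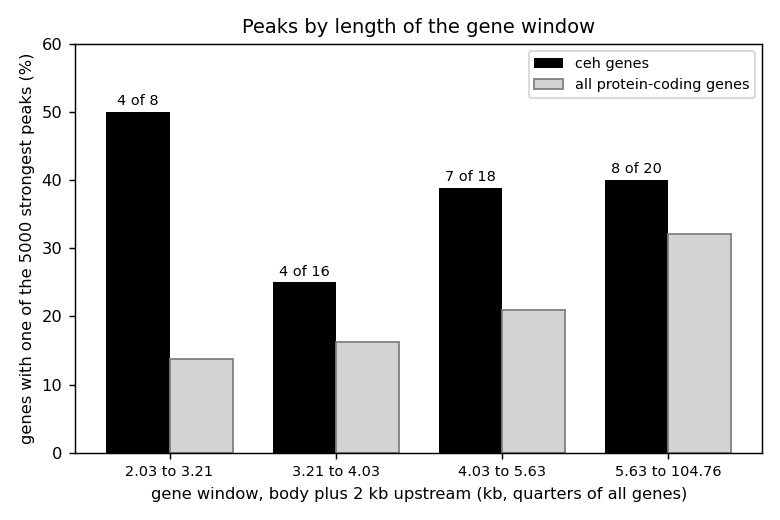
Genes with one of the 5000 strongest pooled peaks (%) in 4 groups of all protein-coding genes by window length (kb). Black bars are ceh genes with their counts written above, and grey bars are all protein-coding genes. The black bar is the taller in each group, from 25% to 50%.

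Chromosome X holds 18 of the 62 ceh genes, and peaks were more frequent there for coding genes at large. One of the 5000 strongest peaks lay at 8 of 18 ceh genes on X (44.4%, beside 32.4% of all coding genes on X). On the autosomes it lay at 15 of 44 (34.1%, beside 18.9%). For the 1000 strongest peaks the counts were 0 of 18 on X (beside 7.36%) and 5 of 44 on the autosomes (beside 4.16%). These counts are too small to set X against the autosomes, and ceh-81 and ceh-82 among the 5 share a summit.

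The 5 ceh genes reached by the 1000 strongest pooled peaks were ceh-8, ceh-5, ceh-81, ceh-82 and ceh-9. The best-placed peak of the set lay at ceh-8, a paired-like gene related to vertebrate Rax. It ranked 170, with a signal of 32 in the pooled list, and the overlapping peaks had 18.8 (rank 482) in replicate 1 and 11.4 (rank 1051) in replicate 2. Both replicates thus held this peak well inside their 5000 strongest. Its summit (I:8245526) lay in an exon 5422 bp into the gene, at its far end, 563 bp from the start of the collagen gene col-63 and within 200 bp of the noncoding gene ZK265.11. For this summit the ceh gene is therefore not the nearest start.

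At ceh-5, related to vertebrate Vax genes, the pooled peak ranked 287 with a signal of 28.5. Replicate 1 gave it 21.5 (rank 213) and replicate 2 gave it 5.04 (rank 25606), so that 1 library carried it. The summit (I:9725476) lay 1693 bp upstream, inside the gene bodies of both eat-16 and ocrl-1. The summit shared by ceh-81 and ceh-82 (II:1731286) ranked 358 with a signal of 27.7, and had 14.6 (rank 2257) and 11.6 (rank 959) in replicates 1 and 2. It lay 883 bp into ceh-81 and 946 bp upstream of ceh-82. At ceh-9, an NK-type gene, a summit 632 bp upstream (I:567220) ranked 770 with a signal of 24.8. It was weak in replicate 1 at 8.87 (rank 18344) and stronger in replicate 2 at 9.63 (rank 2884). Counting each summit for the nearest coding start alone left ceh-5, ceh-81 and ceh-9.

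**Figure D3:**
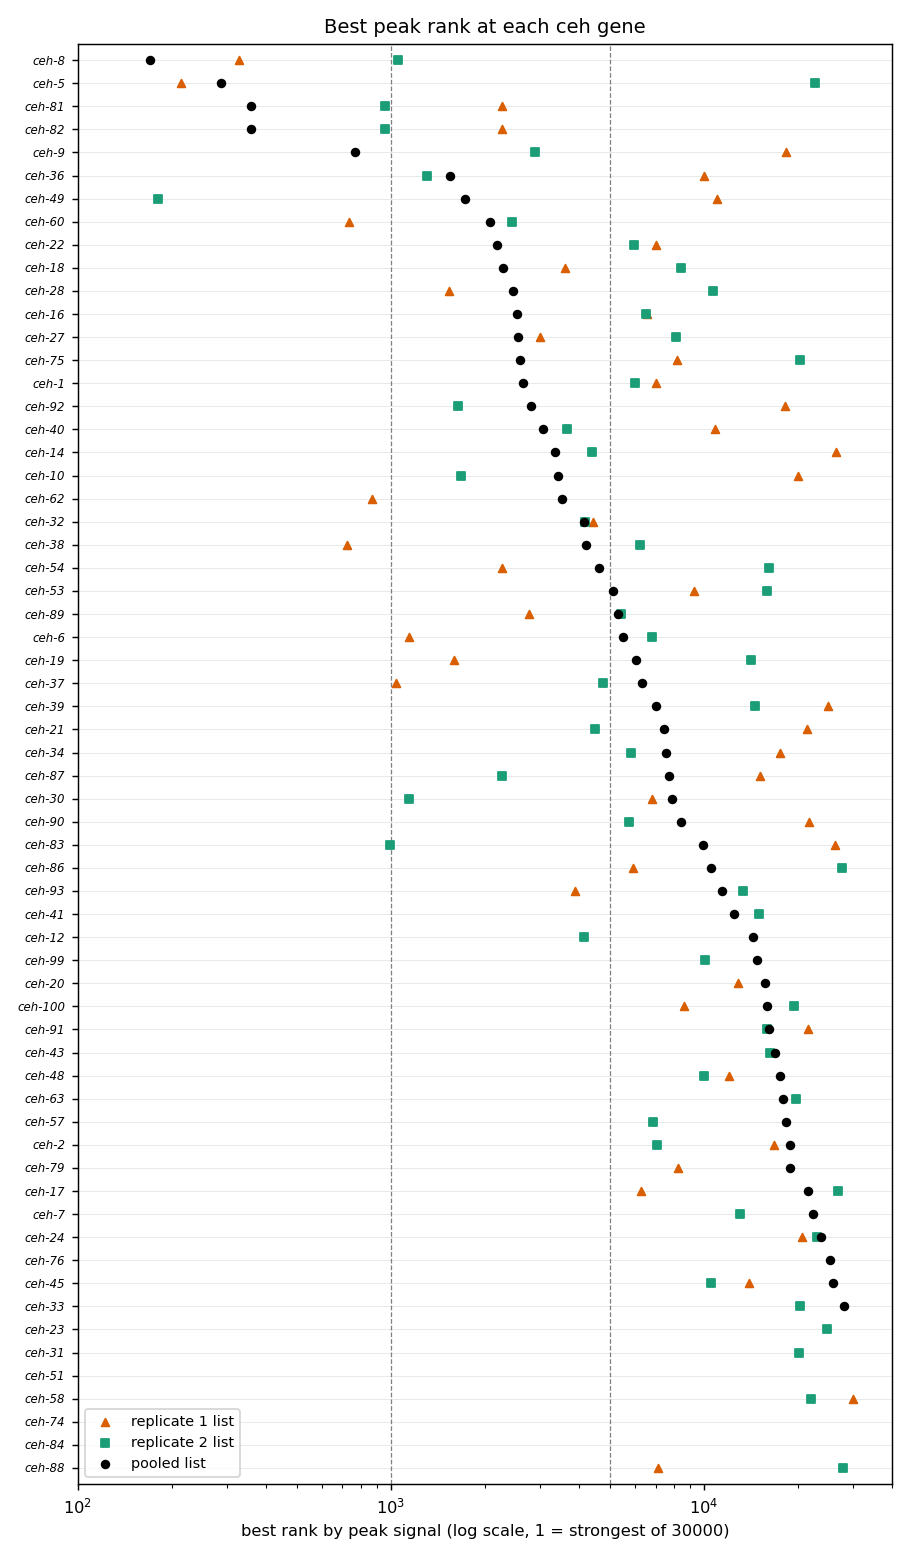
Best rank by peak signal (log scale, 1 is the strongest of 30000) at each of the 62 ceh genes, sorted by the pooled list, with dashed lines at 1000 and 5000. Circles are the pooled list, triangles replicate 1 and squares replicate 2, and a missing symbol means no summit in that list. The triangles and squares of 1 gene often lie far apart, as at ceh-5 (213 and 22707), and can stand for different sites of that gene.

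Replicate 1 had a summit at 48 ceh genes (77.4%, beside 72.9% of all coding genes) and replicate 2 at 55 (88.7%, beside 73.9%). Both lists had one at 45 (72.6%, beside 58.3%), replicate 1 alone at 3, replicate 2 alone at 10 and neither at 4. The 1000 strongest peaks reached 5 ceh genes in replicate 1 (8.06%, beside 4.44%), which were ceh-5, ceh-8, ceh-38, ceh-60 and ceh-62. In replicate 2 they reached 4 (6.45%, beside 4.93%), which were ceh-49, ceh-81, ceh-82 and ceh-83, where ceh-81 and ceh-82 share 1 summit. The 2 sets had 0 genes in common, beside 0.801% of all coding genes reached in both.

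Among the 5000 strongest peaks, replicate 1 reached 17 ceh genes (27.4%, beside 20.7%) and replicate 2 reached 18 (29%, beside 21.6%). Both reached 6 (9.68%, beside 6.97%), namely ceh-8, ceh-32, ceh-37, ceh-60, ceh-81 and ceh-82. The best summits of the replicates lay 5 bp apart at ceh-81 and ceh-82, which share 1 best summit in each list and so are 1 site. At the other 4 genes the best summits were different sites, 1577 bp apart at ceh-60, 2075 at ceh-32, 2533 at ceh-8 and 3648 at ceh-37. Even so, ceh-8 and ceh-37 each also had 1 site among the 5000 strongest of both replicates. At ceh-8 it was the best pooled summit (ranks 482 and 1051), and at ceh-37 it was an exon summit with ranks 1264 and 4748. Over the 45 genes with a summit in both lists, 12 had best summits within 1 peak width of 384 bp (26.7%, beside 25.4% of 11638 coding genes). Spearman's rho of the best ranks across those 45 genes was -0.0243, and across the coding genes 0.158. These are correlations over genes of the same 2 libraries, given as a description.

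**Figure D4:**
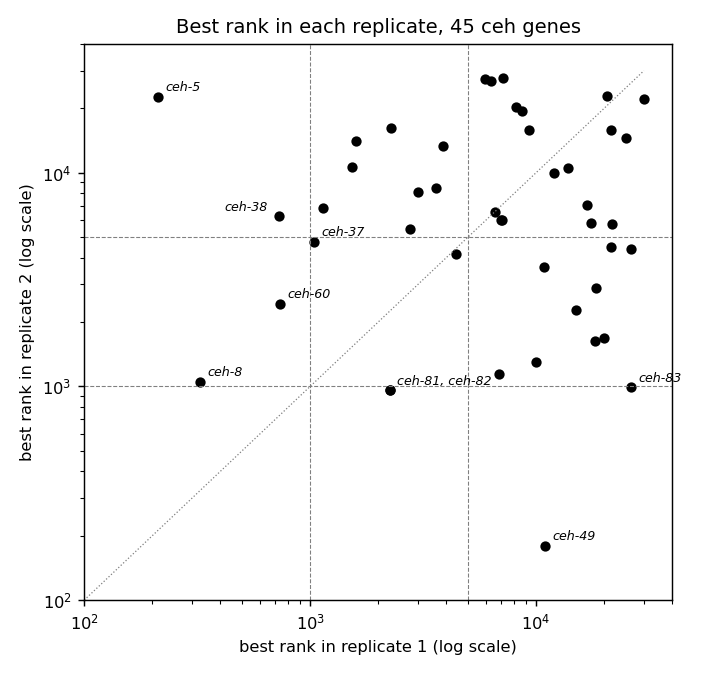
Best rank in replicate 2 against best rank in replicate 1 (both log scales) for the 45 ceh genes with a summit in both lists. Points are genes, dashed lines mark ranks 1000 and 5000, and the dotted line marks equal ranks. No point lies in the lower left corner, where both ranks would be under 1000.

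The largest differences in rank were of both signs. Better placed in replicate 1 were ceh-5, ceh-19 (rank 1590 against 14139), ceh-38 (725 against 6245), ceh-54 (2271 against 16154) and ceh-28 (1531 against 10669). Better placed in replicate 2 was ceh-49, an ONECUT gene, at rank 180 against 10969. Its best replicate 2 summit lay at -1263 bp from the gene start, inside the muscle gene ttn-1. The replicate 1 peak overlapping the pooled summit at -1262 bp ranked 16797. Also better placed in replicate 2 were ceh-83 (993 against 26276), ceh-10 (1679 against 19961), ceh-92 (1637 against 18202) and ceh-36 (1305 against 9976). Each rank is that of the best summit in its list, and only at ceh-36 were these close, 117 bp apart. At the other genes named they lay from 886 bp (ceh-92) to 3486 bp (ceh-83) apart, so the ranks compare different sites. The best pooled summits of ceh-19, ceh-38 and ceh-54 had no overlapping replicate 2 peak. Those of ceh-83, ceh-10 and ceh-92 had none in replicate 1.

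By class, the NK and other Antennapedia-like genes had a pooled peak at 14 of 17, and 7 had one of the 5000 strongest. The classes are small, and their counts are to be read against the 73.2% and 20.8% of all coding genes given above. Members of the NK and other Antennapedia-like class among the 20 best-placed ceh genes were ceh-5, ceh-9, ceh-22, ceh-28, ceh-16, ceh-27 and ceh-1. For ceh-22, which acts in pharyngeal muscle, the best summit ranked 2183 (signal 21.4) and lay in an intron. The gene ceh-28 is required for expression of dbl-1, the ligand of the BMP-like pathway, in the pharyngeal neuron M4. Its best summit, in an intron 659 bp from the start, ranked 2457 (20.99), and had 15.7 (rank 1531) in replicate 1 and 5.58 (rank 20731) in replicate 2. At ceh-16, the engrailed gene of the seam cells, an intron summit ranked 2535 (20.9) and had nearly the same rank in replicates 1 and 2, 6586 and 6515.

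The 6 paired-like genes all had a pooled peak, and 3 had one of the 5000 strongest. After ceh-8 came ceh-36, an Otx-type gene of chemosensory neurons, with an intron summit of rank 1549 (22.5). It was followed by ceh-10, which specifies the AIY interneuron, with a summit 128 bp upstream of rank 3407 (19.9). That summit had no overlapping peak in replicate 1 and 10.6 (rank 1679) in replicate 2. The other 3, ceh-37, ceh-17 and ceh-45, had best ranks of 6325, 21483 and 25802.

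The 6 ONECUT genes all had a peak, with best ranks from 1730 at ceh-49 to 17446 at ceh-48, and 2 of them had one of the 5000 strongest. Of the PBC genes, whose proteins pair with Hox proteins, ceh-60 ranked 2069 (signal 21.6) in an exon, with 17.6 (rank 734) in replicate 1 and no overlapping peak in replicate 2. The second, ceh-40, ranked 3067 (20.2) and ceh-20 ranked 15643 (13.96). Of the POU genes, ceh-18, which acts in the gonadal sheath, ranked 2278 (21.3) in an intron and ceh-6, of the excretory cell, 5510 (18.1). The LIM gene ceh-14 had its best summit 1514 bp upstream, of rank 3351 (19.9). The sine oculis-type genes ranked 4133 (ceh-32), 7571 (ceh-34) and 27971 (ceh-33).

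The remaining 24 genes were given no class here. Of these, 20 had a pooled peak and 6 had one of the 5000 strongest, shares not far from those of all coding genes, with ceh-75 (rank 2582), ceh-92 (2805) and ceh-62 (3518) next after ceh-81 and ceh-82. The 7 ceh genes with no pooled summit were ceh-23, ceh-31, ceh-51, ceh-58, ceh-74, ceh-84 and ceh-88, for which any pooled peak in the window would have had a signal under 10.9. Of these, ceh-51, ceh-74 and ceh-84 had no summit in either replicate list.

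Most ceh genes with peaks had few of them. Of the 55, 17 had 1 pooled summit, 18 had 2, 15 had 3, and 5 had from 4 to 6, the most being 6 at ceh-8 and ceh-37. In all there were 124 pairs of a summit and a gene, from 122 different summits. The body of another coding gene held 19 of these summits, and 42 lay in the window of another coding gene. For 95 of the 122 the nearest coding start was that of a ceh gene. A peak of replicate 1 overlapped 63.9% of the 122 summits (69.5% of all pooled peaks), one of replicate 2 overlapped 68% (56.7%), and both did so at 36.9% (33.8%).

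Upstream, intron and exon positions were about equally frequent. Of the 124 pairs, 44 were upstream (35.5%, beside 39.6% over all coding genes), 39 in an intron (31.5%, beside 32.8%) and 41 in an exon (33.1%, beside 27.5%). Exons make up 24.8% of the ceh windows and introns 38.9%. Per kb there were 0.485 summits in exons of ceh genes, 0.355 upstream and 0.294 in introns, beside 0.288, 0.309 and 0.296 over all coding genes. The other homeobox genes had 0.487 in exons, much as the ceh genes, with 0.5 upstream and 0.394 in introns. In the pooled list exons were thus the densest part at ceh genes but not at other homeobox genes. Over all coding genes the parts were nearly even. Exons span 84.5 kb of the ceh windows, the upstream part 124 kb and introns 132.7 kb. Replicate 2 had 42, 39 and 55 ceh summits in these parts, with exons the densest. Replicate 1 had 25, 44 and 46, with exons the least dense. In the replicates the exon share of ceh summits was 21.7% and 30.9% (beside 26.3% and 30.9%), both below the pooled ceh share and neither above that of all coding genes. Introns held 40% and 40.4% there (beside 33.5% and 31.1%). Of the 44 upstream summits, 10 lay within 500 bp of the gene start and 17 inside the body of another coding gene. The best summit was upstream at 21 ceh genes, in an exon at 21 and in an intron at 13.

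**Figure D5:**
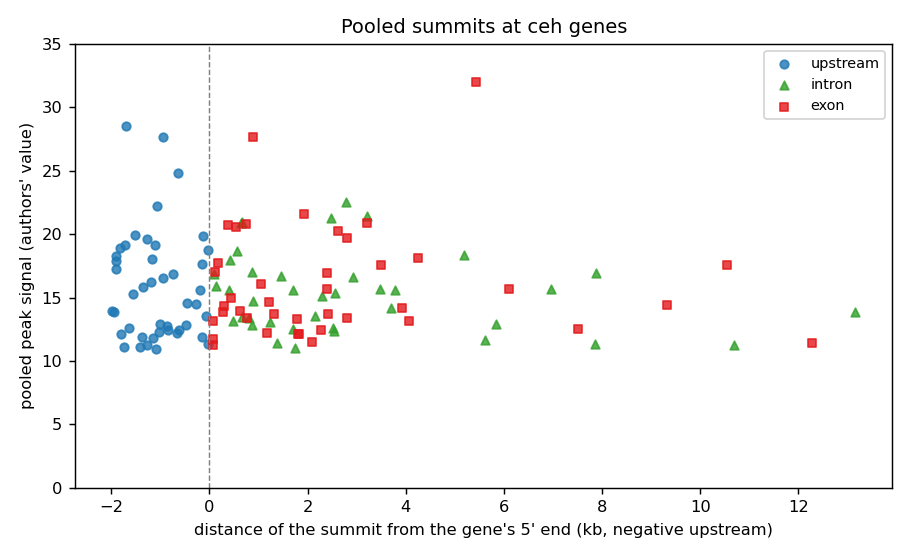
Pooled peak signal (the authors' value) against the distance of the summit from the 5' end of its gene (kb, negative upstream) for the 124 pairs of a summit and a ceh gene. Circles are upstream, triangles intronic and squares exonic summits, and the dashed line marks the gene start. Signals run up to 32, at an exon summit of ceh-8, and all 3 kinds of position occur among the weaker signals.

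Base composition and motifs at the 122 summits were near those of all pooled peaks. GC content over 200 bp averaged 35.1% (SD 6.93 over summits) beside 34.7% (SD 6.84). The SMAD box GTCT was in 59.8% beside 60.7%, GAGAGA in 10.7% beside 10.4%, and the E-box CACGTG in 2.46% beside 3.4%. GGCGCC, a GC-rich site bound by SMADs, occurred in 1.64% beside 1.27%. The homeodomain core TAATTA was in 13.9% beside 10.3%, and the Hox-Pbx site TGATNNAT in 18.9% beside 16.3%. At the 25 ceh summits within the 5000 strongest, GTCT was in 21 (84%), beside 62.3% of all 5000, and GAGAGA in 2 (8%), beside 14.2%. The TGATNNAT motif was in 2 of the 25 (8%, beside 16.3%), and TAATTA in 4 (16%, beside 10.3%). Shares over 25 summits rest on few sites, and over all 122 the GTCT share was not above that of all pooled peaks.

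Homeobox genes under other names were like the ceh genes at some depths and differed in the position of their summits. None of the 38 listed had a thresholded peak, beside 0.451% of all coding genes. One of the 500 strongest lay at 1 (2.63%, beside 2.12% of all coding genes and 6.45% of ceh genes). One of the 1000 strongest lay at 2 (5.26%, beside 4.6%) and one of the 5000 strongest at 18 (47.4%, beside 20.8%). Of the 18, nob-1 and php-3 share a summit of rank 4933. The windows of the 38 genes had a longer median of 6.87 kb and 0.440 summits per kb. Introns made up 53.8% of these windows and held 48.2% of the summits, beside 38.9% and 31.5% at ceh genes. Exons held 24.1%, beside 33.1%. The best placed were unc-30, which specifies GABA neurons, at rank 199, and irx-1, an Iroquois gene, at rank 614. Next were mls-2, a regulator of the M lineage, at rank 1038 and ttx-3, the AIY partner of ceh-10, at rank 1075. Of the nuclear hormone receptor genes, another large family of transcription factors, 10 of 269 (3.72%, beside 0.451%) had a thresholded peak. One of the 5000 strongest lay at 62 of them (23%, beside 20.8%), near the share of all coding genes. The order of these families thus differed with the depth at which the list was read, a difference that was not tested. Counts of 0 of 62 ceh genes and 0 of 38 other homeobox genes are themselves near the 0.451% share of all coding genes.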

How the data were processed

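The submitters deposited peak lists in the narrowPeak layout, made from the reads of each replicate or of both pooled together with a control, per the text deposited beside the lists. Which aligner and peak caller were run is not given in the sources used here, nor is the threshold. The signal in column 7 is the authors' value per peak with no stated scale, and the deposited score in column 9 lies below 0 for 20593 pooled peaks (68.6%), so column 7 gave the ranks. Peaks were 384 bp wide (360 bp in replicate 1), with central summits.

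The ce11 lists were joined to the WBcel235 gene models of Ensembl release 115, the same assembly under another name. Lists in ce10 were not used. Exons are those of any transcript of the gene. Motif windows of 200 bp came from the RefSeq assembly. The lists name 38 other homeobox genes, all matched, and 39 ceh genes by class, of which 38 matched by name (ceh-44 did not). Named genes are the 20 of best pooled rank, the best of each class, the 5 genes with the largest rank ratio in favour of each replicate, and those without a pooled summit; others are given as ranges, class values or for a stated reason. The members and lists were chosen with earlier results of these data known. Assignment was tested on simulated summits. Python 3.11.15, pandas 2.3.3, numpy 2.4.6, scipy 1.17.1 and matplotlib 3.10.9 were used. With 1 group of 2 replicates, no test was made.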

Additional observations from a re-analysis of the deposited data

How the results depend on the processing

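The share of ceh genes with a pooled peak (88.7%) was 72.6% with the gene body alone, 64.5% with the stronger 15000 peaks, 48.4% with peaks whose column 9 is above 0, and 77.4% to 88.7% when a replicate was left out. The count with one of the 1000 strongest peaks (5) was 2 in gene bodies alone, 3 when each summit went to the nearest coding start and 23 with the 5000 strongest. Ranking by column 9 gave 4, of which ceh-5 and ceh-8 were also among the 5. The others, ceh-14 and ceh-2, entered by weak pooled peaks of ranks 29463 and 29943 by signal. Column 9 was below 0 for all pooled peaks of ranks 501 to 15000. Neither setting based on column 9 is therefore a stricter cut on signal. The count of 0 with a thresholded peak became 1 with 5 kb upstream, which was ceh-5. The count of 0 in both replicates became 1 with 5 kb upstream, again ceh-5, and 6 with the 5000 strongest. The intron share of summits (31.5%) was 20.9% with 5 kb upstream, 0% among the 1000 strongest, which are 5 pairs, and 40% to 40.4% when a replicate was left out. The density of summits (0.363 per kb) was 0.351 with 1 kb upstream, 0.355 with 5 kb upstream and 0.368 in gene bodies alone. It was 0.399 without replicate 1 and 0.337 without replicate 2, and a spread from 2 libraries cannot show that it is stable. Where a value moved, the cause was not tested beyond what the setting itself changes. Read depth is unknown, so a missing peak says only that its signal was under the lowest of the list.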

Other observations

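Column 9 of the pooled list did not follow its signal. It was below 0 for 0 of the 125 strongest pooled peaks, for 35.5% of ranks 126 to 500, for 100% of ranks 501 to 15000 and for 39.7% of the rest. Of the 26 pairs of a ceh gene and one of the 5000 strongest peaks, 2 had a value above 0, those at ceh-8 (rank 169 by column 9) and ceh-5 (rank 313). The summit shared by ceh-81 and ceh-82 ranked 10225 by column 9, and that upstream of ceh-9 ranked 29424.

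The 3 neighbouring ceh genes on chromosome II, ceh-81, ceh-82 and ceh-83, lie within II:1730403-1736533. Each had a summit among the 1000 strongest of replicate 2, which for ceh-81 and ceh-82 was 1 shared summit (rank 959). For ceh-83 the replicate 2 summit lay at -1357 bp from the gene start and ranked 993. The pooled summit there, of rank 9908, lay in the body of irld-9 and had no overlapping peak in replicate 1. Of some other neighbouring members, picked like these 3 after their values were seen, ceh-30 had a best pooled rank of 7923 and its neighbour ceh-31 had no pooled summit, while ceh-34 and ceh-33 ranked 7571 and 27971. The X-linked run of ceh-41, ceh-21 and ceh-39 ranked 12478, 7441 and 7008, with 1 summit at each.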
